A study of Mus musculus with 12 samples.

Results

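The transcripts described here belong to 10 genes of the IL-1 family, IL-6 and TNF system: the cytokines Il1a, Il1b, Il33, Il18, Il6, Osm and Tnf, the antagonist Il1rn, and the receptors Il1r1 and Il1rl1. They were chosen with earlier results of these data known, and taken by gene symbol from the 49585 genes of the count table. All 10 were found and had enough counts to be tested, among 18556 tested genes. Poly(A) RNA was sequenced from whole lungs of C57BL/6J mice that bore a subcutaneous MO4 melanoma, in 12 libraries that formed 4 groups of 3. The combination lungs came from mice aged 22 months that were given anti-PD-1 plus an IL-21 receptor antibody (anti-IL-21R). The aged anti-PD-1 lungs came from mice of that age given anti-PD-1 alone, and the aged control lungs from mice of that age given an isotype-matched rat antibody. The young anti-PD-1 lungs came from mice aged 2 months, also given anti-PD-1. Every mouse carried the tumour, and the labels give days 3, 7 and 11 after inoculation for anti-PD-1 and the control antibody. The design held no young mice with the control antibody, so anti-PD-1 could be compared with its control in aged mice only.

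IL-1α and IL-1β are early alarm cytokines that signal through the receptor encoded by Il1r1 and the adaptor MyD88 to NF-κB, while the product of Il1rn occupies the same receptor without signalling. IL-33 uses the related receptor ST2, encoded by Il1rl1, and is stored in the nucleus of barrier cells, in the mouse lung mainly type 2 alveolar epithelium. IL-6 and oncostatin M act through receptors that share gp130 and activate STAT3, and TNF acts through its own receptors on NF-κB and cell death.

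Counted reads ran from 16021877 to 22058620 per library. Levels are given as TMM-scaled CPM (counts scaled to library size), each with the SD over 3 libraries where a mean is printed. Changes are log2 fold changes ± SE from an edgeR quasi-likelihood fit to the 12 libraries. A gene is called where its edgeR p, adjusted by the Benjamini-Hochberg method over all genes tested, was under 0.05. Whether libraries stand for separate mice is not stated in the labels, so p-values here cover only the spread between samples, which may be technical in part. In a whole organ, fewer cells of a type and less RNA per cell cannot be told apart. Library make-up was not the same in all groups. The mitochondrial share of counts was 13.4 ± 1.72% in combination lungs, 9.35 ± 2.18% in aged anti-PD-1 lungs, 8.56 ± 1.62% in aged control lungs and 6.76 ± 0.628% in young anti-PD-1 lungs. Haemoglobin transcripts took 2.79 ± 1.12% in combination lungs, 1.16 ± 0.131% in aged anti-PD-1 lungs, 1.65 ± 0.364% in aged control lungs and 1.40 ± 0.125% in young anti-PD-1 lungs.

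Among the aged groups, Il1b, Osm and Il6 were low with anti-PD-1 alone, and high both with the control antibody and with the combination. With anti-PD-1 against the control antibody in aged mice these 3 genes fell and no member rose, so 3 of 10 members were called, against 10.9% of all genes tested (5.34% higher and 5.58% lower). With the combination against anti-PD-1 alone the same 3 genes rose and none fell, against 9.02% of all genes tested (4.67% higher and 4.35% lower). Between the combination and the control antibody none of the 10 was called, and neither was any other gene in the edgeR fit (0% of genes). Of the members 1, Il33, and of all genes tested 1228 had an unadjusted p under 0.05 there, and DESeq2 called 76 genes but none of the members. With age, under the same anti-PD-1 treatment, Il33 was the single member called, and it was lower in aged lungs. This made 1 of 10 members, against 15.3% of all genes tested (8.09% higher and 7.16% lower). The comparisons of anti-PD-1 with control and of the combination with anti-PD-1 share the 3 aged anti-PD-1 libraries, so their opposite directions are not independent of each other. Because the members were chosen with earlier results known, their shares and medians beside all genes describe the set and do not test it. The counts changed when single libraries were left out. Each such fit has fewer libraries for every gene, and calls over all genes fell too. They were 607 to 1995 for aged anti-PD-1 against aged control, and 260 to 1439 for the combination against aged anti-PD-1. In these fits the log2 fold changes of the first comparison were -1.21 to -0.82 for Il1b, -1.91 to -1.11 for Osm and -1.99 to -1.28 for Il6. Those of the second were 1.13 to 1.37, 1.33 to 1.64 and 1.52 to 2.02. For aged anti-PD-1 against aged control, 1 member was called without aged anti-PD-1 library 1 or 3 or aged control library 2, and 5 without aged control library 1. Aged control library 1 had the lowest level of its group for every member but Il1r1. Its summed CPM of the members was 724, against 1435 and 1212 in aged control libraries 2 and 3. For the combination against aged anti-PD-1, 1 was called without aged anti-PD-1 library 1 or combination library 2.

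The median log2 fold change of the 10 members was -0.71 for aged anti-PD-1 against aged control, beside -0.02 over all genes tested. It was 0.70 for the combination against aged anti-PD-1, beside -0.01 over all genes. For the combination against aged control it was 0.01, and for aged against young anti-PD-1 it was 0.02, each beside -0.01 over all genes. The libraries of the compared groups were fully separate in level for 3 members in aged anti-PD-1 against aged control, as for 32.5% of all genes. They were so for 6 members in the combination against aged anti-PD-1 (32.2% of all genes), for 0 members in the combination against aged control (9.71% of all genes), and for 3 members in aged against young anti-PD-1 (39.6% of all genes). With scaling by library totals alone, 1400 genes were called higher and 559 lower with anti-PD-1 in aged mice, in place of 990 and 1035. For the combination against anti-PD-1 that scaling gave 361 higher and 2677 lower, in place of 866 and 808, and moved the median of all genes to -0.21. The members called in these comparisons were also called with that scaling.

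**Figure D1:**
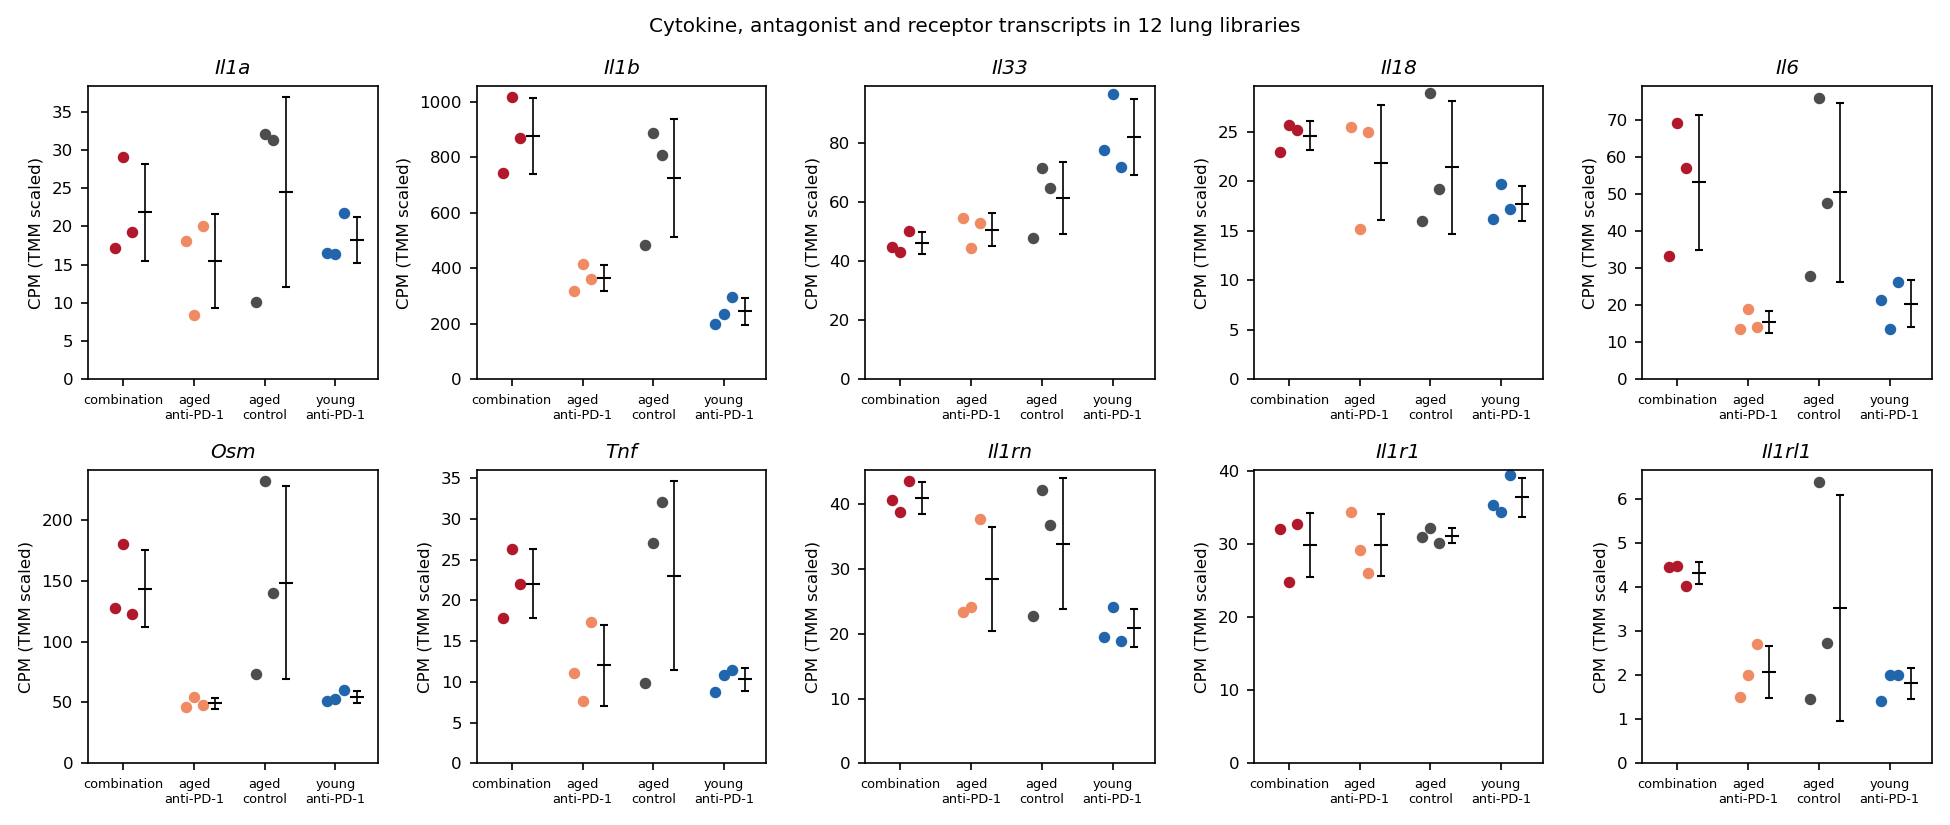
CPM (TMM scaled, linear axis from 0) of each of the 10 genes in the 12 lung libraries; coloured points are libraries, and black bars are the group mean ± SD (n = 3). Il1b, Osm and Il6 were low in all 3 aged anti-PD-1 libraries, for Il1b between 320 and 415 CPM, against 743 to 1016 CPM in the combination and 483 to 886 CPM in aged control lungs.

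Of the ligands, Il1b, which encodes IL-1β, was by far the most abundant per length. Its mean over the 12 libraries was 573 TPM (counts divided by exon length and scaled to the sum of such values in the library), against 86.3 TPM for Osm, 44.0 for Il33, 42.8 for Il18, 28.2 for Il6, 20.7 for Il1a and 20.7 for Tnf. The antagonist Il1rn averaged 11.4 TPM, the receptor gene Il1r1 10.5 TPM and Il1rl1 0.848 TPM. TPM values are used here to compare genes within a library only, since they also move with the share of short abundant transcripts. Of the summed TPM of the 7 cytokine genes, Il1b made up 74.9 to 76.2% in the combination libraries, 66.2 to 75.4% in the aged anti-PD-1 libraries, 68.0 to 74.4% in the aged control libraries and 54.4 to 61.7% in the young anti-PD-1 libraries. Thus all 9 aged libraries lay above all 3 young ones in this share.

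Il1b (ENSMUSG00000027398, chromosome 2, 129364570 to 129371139, minus strand, mm10) had 743, 1016 and 870 CPM in combination lungs, 320, 415 and 360 CPM in aged anti-PD-1 lungs, 483, 886 and 807 CPM in aged control lungs, and 200, 236 and 298 CPM in young anti-PD-1 lungs. All 3 aged anti-PD-1 libraries lay below every combination and every aged control library, and above every young library. Against aged anti-PD-1, the combination had 1.26 ± 0.21 more on the log2 scale (2.40-fold, 95% interval 0.80 to 1.73, edgeR adjusted p 0.00656), a call kept without any 1 of the 6 libraries. In aged anti-PD-1 lungs relative to aged control, Il1b fell by 0.99 ± 0.21 (edgeR adjusted p 0.0149). That call was lost without aged anti-PD-1 library 1 or 3 or aged control library 2 (highest edgeR adjusted p 0.0584). Against aged control, the combination differed by 0.27 ± 0.21 (edgeR adjusted p 0.892, 95% interval -0.18 to 0.73), with overlapping ranges. For aged against young anti-PD-1 the difference was 0.58 ± 0.21 (edgeR adjusted p 0.0840), short of the threshold although the ranges did not overlap. DESeq2 called this age difference (adjusted p 0.0421), as did the fit to those groups alone (edgeR adjusted p 0.0225) and a fit with the replicate number as a block (edgeR adjusted p 0.0225).

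Il1a encodes IL-1α, the form that is active without cleavage and is released by damaged cells (ENSMUSG00000027399, chromosome 2, 129299610 to 129309972, minus strand, mm10). It had 17.2, 29.0 and 19.3 CPM in combination lungs, 18.0, 8.45 and 20.0 CPM in aged anti-PD-1 lungs, 10.1, 32.0 and 31.3 CPM in aged control lungs, and 16.5, 16.4 and 21.7 CPM in young anti-PD-1 lungs. All neighbours in the order of group means overlapped, with the first aged control library lower than every combination and young library. No comparison called Il1a: the log2 differences were 0.49 ± 0.41 for the combination against aged anti-PD-1 (edgeR adjusted p 0.481) and -0.66 ± 0.41 for aged anti-PD-1 against aged control (edgeR adjusted p 0.310). Per length, Il1b exceeded Il1a in every library, by 36.2- to 46.8-fold in the combination, 18.4- to 50.9-fold in the aged anti-PD-1, 26.7- to 49.4-fold in the aged control and 12.5- to 14.9-fold in the young anti-PD-1 libraries.

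Il1rn encodes the IL-1 receptor antagonist (ENSMUSG00000026981, chromosome 2, 24336853 to 24351494, plus strand, mm10). It had 40.6, 38.8 and 43.6 CPM in combination lungs, 23.4, 24.2 and 37.8 CPM in aged anti-PD-1 lungs, 22.7, 42.3 and 36.8 CPM in aged control lungs, and 19.4, 24.2 and 19.0 CPM in young anti-PD-1 lungs. The combination libraries lay just above the third aged anti-PD-1 library, and the difference was not called (0.53 ± 0.22, edgeR adjusted p 0.143). Without aged anti-PD-1 library 3 it passed, at an edgeR adjusted p of 0.0479. No other comparison called Il1rn. Per length, the ratio of Il1b to Il1rn was 53.0 to 76.1 in the combination libraries, 27.7 to 49.7 in the aged anti-PD-1 libraries, 60.8 to 63.7 in the aged control libraries and 28.3 to 45.6 in the young anti-PD-1 libraries. The aged anti-PD-1 libraries thus lay below the other aged libraries in this ratio and overlapped the young ones. The size of the ratio depends on the exon lengths used, 1907 bases for Il1b and 5535 for Il1rn. The order of the libraries does not.

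Il1r1, the signalling receptor for IL-1α and IL-1β (ENSMUSG00000026072, chromosome 1, 40225080 to 40317257, plus strand, mm10), had the narrowest range of the members relative to its level. It had 32.0, 24.9 and 32.8 CPM in combination lungs, 34.4, 29.2 and 26.0 CPM in aged anti-PD-1 lungs, 31.1, 32.3 and 30.2 CPM in aged control lungs, and 35.4, 34.5 and 39.5 CPM in young anti-PD-1 lungs. Every young library lay above every aged library, the lowest of them only just, but the age difference was not called (-0.28 ± 0.13, edgeR adjusted p 0.144). Between the combination and aged anti-PD-1 the 95% interval of the log2 difference ran from -0.27 to 0.27.

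Il6 (ENSMUSG00000025746, chromosome 5, 30013114 to 30019981, plus strand, mm10), which encodes the chief inducer of the hepatic acute phase response, had 33.2, 69.2 and 57.0 CPM in combination lungs, 13.6, 19.0 and 14.1 CPM in aged anti-PD-1 lungs, 27.8, 76.0 and 47.6 CPM in aged control lungs, and 21.4, 13.7 and 26.3 CPM in young anti-PD-1 lungs. The aged anti-PD-1 libraries were below all other aged libraries and overlapped the young ones, and the first library was the lowest in both the combination and the aged control group. Il6 was higher in the combination than in aged anti-PD-1 lungs by 1.77 ± 0.37 on the log2 scale (3.41-fold, 95% interval 0.95 to 2.59, edgeR adjusted p 0.0179). Against aged control it fell by 1.70 ± 0.37 in aged anti-PD-1 lungs (95% interval -2.51 to -0.88, edgeR adjusted p 0.0194). These calls were less firm than that of Il1b in the combination. The rise was lost without aged anti-PD-1 library 1 or 3 or combination library 2 (highest edgeR adjusted p 0.0776). The fall was lost without aged anti-PD-1 library 1 or 3 or aged control library 2 (highest edgeR adjusted p 0.0712). Without the filter on low counts the adjusted p was 0.0594 for the rise and 0.0605 for the fall (edgeR). Age gave -0.40 ± 0.37 (edgeR adjusted p 0.524), and the combination against aged control gave 0.07 ± 0.36 (edgeR adjusted p 0.989, 95% interval -0.71 to 0.85).

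Osm, which encodes oncostatin M, an IL-6 family cytokine made mainly by myeloid and T cells (ENSMUSG00000058755, chromosome 11, 4236420 to 4241026, plus strand, mm10), had 128, 180 and 123 CPM in combination lungs, 46.0, 54.3 and 47.8 CPM in aged anti-PD-1 lungs, 73.4, 232 and 140 CPM in aged control lungs, and 51.1, 52.9 and 60.0 CPM in young anti-PD-1 lungs. The aged control libraries were the most spread, while the aged anti-PD-1 and young libraries lay close together and overlapped. In the combination Osm was 1.54 ± 0.31 higher than in aged anti-PD-1 lungs (2.91-fold, 95% interval 0.86 to 2.22, edgeR adjusted p 0.0150). That call was lost without the first aged anti-PD-1 or the second combination library (highest edgeR adjusted p 0.0708), and without the filter on low counts (edgeR adjusted p 0.0540). Against aged control, Osm fell by 1.59 ± 0.31 in aged anti-PD-1 lungs (edgeR adjusted p 0.0122), a call kept without any 1 of the 6 libraries. The combination against aged control gave -0.05 ± 0.30 (edgeR adjusted p 0.992) and age gave -0.15 ± 0.31 (edgeR adjusted p 0.795).

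Tnf (ENSMUSG00000024401, chromosome 17, 35199381 to 35202007, minus strand, mm10) had 17.8, 26.4 and 22.0 CPM in combination lungs, 11.0, 7.64 and 17.4 CPM in aged anti-PD-1 lungs, 9.92, 27.1 and 32.1 CPM in aged control lungs, and 8.72, 10.9 and 11.4 CPM in young anti-PD-1 lungs. The first aged control library lay among the aged anti-PD-1 libraries, and the lowest combination library was just above the highest aged anti-PD-1 library. The differences had the signs seen for Il1b but missed the call: 0.87 ± 0.37 for the combination against aged anti-PD-1 (edgeR adjusted p 0.160) and -0.94 ± 0.37 for aged anti-PD-1 against aged control (edgeR adjusted p 0.122). DESeq2 called the second of these (adjusted p 0.0451), and edgeR called it without the first aged control library (edgeR adjusted p 0.0111). In the other comparisons the log2 differences of Tnf were 0.22 ± 0.38 for age (edgeR adjusted p 0.750) and -0.06 ± 0.37 for the combination against aged control (edgeR adjusted p 0.991).

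**Figure D2:**
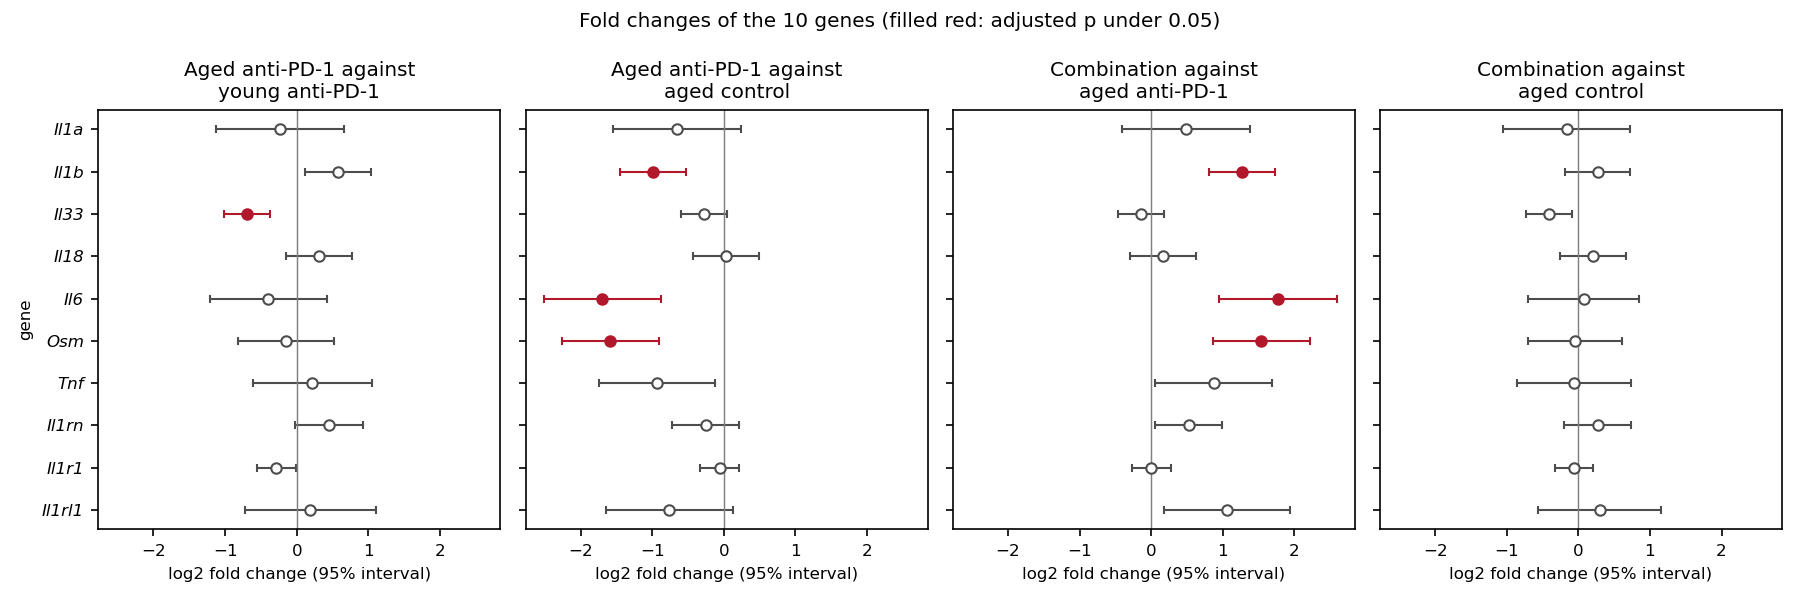
Log2 fold changes (x axis) of the 10 genes (y axis) in the 4 comparisons, with 95% intervals from the edgeR fit; filled red points had an adjusted p under 0.05. Il1b, Osm and Il6 lie left of 0 for aged anti-PD-1 against aged control and right of 0 for the combination against aged anti-PD-1, and no gene is filled for the combination against aged control.

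Il33 (ENSMUSG00000024810, chromosome 19, 29925114 to 29960718, plus strand, mm10) followed age. It had 44.7, 43.2 and 50.2 CPM in combination lungs, 54.6, 44.3 and 53.0 CPM in aged anti-PD-1 lungs, 47.9, 71.5 and 64.8 CPM in aged control lungs, and 77.6, 96.6 and 72.0 CPM in young anti-PD-1 lungs. Every young library lay above every aged library, although the lowest young library and the highest aged control library nearly met, at 72.0 and 71.5 CPM. In aged against young anti-PD-1 lungs Il33 fell by 0.70 ± 0.15 on the log2 scale (95% interval -1.02 to -0.38, edgeR adjusted p 0.00812), a call kept without any 1 of the 6 libraries. Among the aged groups it was not called: -0.28 ± 0.15 for aged anti-PD-1 against aged control (edgeR adjusted p 0.236), -0.14 ± 0.15 for the combination against aged anti-PD-1 (edgeR adjusted p 0.602) and -0.41 ± 0.15 for the combination against aged control (edgeR adjusted p 0.605, unadjusted p 0.0153).

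Markers of type 2 alveolar epithelium were lower in aged lungs as well. Of 11 such genes, 10 fell and 0 rose in aged against young anti-PD-1 lungs (median log2 fold change -0.65), among them Lamp3, a lamellar body protein (-1.01 ± 0.17, edgeR adjusted p 0.00211), and Etv5, a transcription factor of these cells (-0.88 ± 0.17, edgeR adjusted p 0.00469). Their summed level was 22587 to 29958 CPM in the combination, 20668 to 23609 CPM in the aged anti-PD-1, 22663 to 25307 CPM in the aged control and 29138 to 36005 CPM in the young anti-PD-1 libraries, and none of the 11 was at 0 in any library. Type 1 alveolar markers had 7 of 9 genes lower in the same comparison and mesothelial markers 6 of 7 (median -1.44), beside 15.3% of all genes called. The mesothelial markers were also low with treatment among the aged groups, with 6 of 7 lower in aged anti-PD-1 against aged control (median -1.52), beside 10.9% of all genes called. None of the 7 was called in the combination against aged control (median -1.08), although all 7 had an unadjusted p under 0.05. Their summed level was 353 to 397 CPM in the combination, 265 to 353 CPM in the aged anti-PD-1, 544 to 616 CPM in the aged control and 635 to 658 CPM in the young anti-PD-1 libraries, with no gene at 0 in any library. The part of these epithelial and mesothelial genes in the Il33 difference was not tested.

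Il1rl1, the receptor gene for IL-33 on type 2 innate lymphoid cells, mast cells and some T cells (ENSMUSG00000026069, chromosome 1, 40429570 to 40465415, plus strand, mm10), was the scarcest member. It had 4.44, 4.48 and 4.02 CPM in combination lungs, 1.51, 2.01 and 2.69 CPM in aged anti-PD-1 lungs, 1.45, 6.38 and 2.73 CPM in aged control lungs, and 1.42, 2.00 and 2.01 CPM in young anti-PD-1 lungs. These values rest on 28 to 113 reads per library. The combination libraries lay above all aged anti-PD-1 libraries, by 1.06 ± 0.41 on the log2 scale, which was not called (edgeR adjusted p 0.117) but passed in the edgeR fit of these 2 groups alone (adjusted p 0.0309). The difference of aged anti-PD-1 against aged control (-0.76 ± 0.41, edgeR adjusted p 0.239) was called only without the first aged control library (edgeR adjusted p 0.0430). Of the mast cell and basophil markers, 10 were tested. Their median log2 fold change was 0.52 in the combination against aged anti-PD-1, where 0 were called higher and 1 lower (9.02% of all genes called), and 6 had an unadjusted p under 0.05. In aged anti-PD-1 against aged control the median was -0.63, 2 were called higher and 0 lower (10.9% of all genes called), and again 6 had an unadjusted p under 0.05. The medians thus had the signs of the Il1rl1 differences, and the called genes the opposite ones. The called genes were Kit, the stem cell factor receptor gene (-1.26 and 1.34 in these 2 comparisons), and in the second also the transcription factor gene Gata2 (0.53). None of the 11 markers was at 0 in all libraries, and 1 was at 0 in at least 1 library. The summed level of all 11 followed the called genes, with 124 to 180 CPM in the combination, 182 to 233 CPM in the aged anti-PD-1, 144 to 159 CPM in the aged control and 118 to 160 CPM in the young anti-PD-1 libraries. Blood endothelial markers had the signs of Kit and Gata2. Of 11, 6 were called lower in the combination against aged anti-PD-1 and 7 higher in aged anti-PD-1 against aged control. Which cells expressed Kit and Gata2 was not tested.

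Il18, whose product is cleaved by caspase-1 and drives interferon gamma (ENSMUSG00000039217, chromosome 9, 50554827 to 50581840, plus strand, mm10), had 22.9, 25.7 and 25.2 CPM in combination lungs, 25.5, 15.2 and 25.0 CPM in aged anti-PD-1 lungs, 16.0, 28.9 and 19.3 CPM in aged control lungs, and 16.3, 19.7 and 17.3 CPM in young anti-PD-1 lungs. All neighbouring groups overlapped and no comparison called it. The log2 difference with age was 0.31 ± 0.21 (edgeR adjusted p 0.371, 95% interval -0.15 to 0.77).

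**Figure D3:**
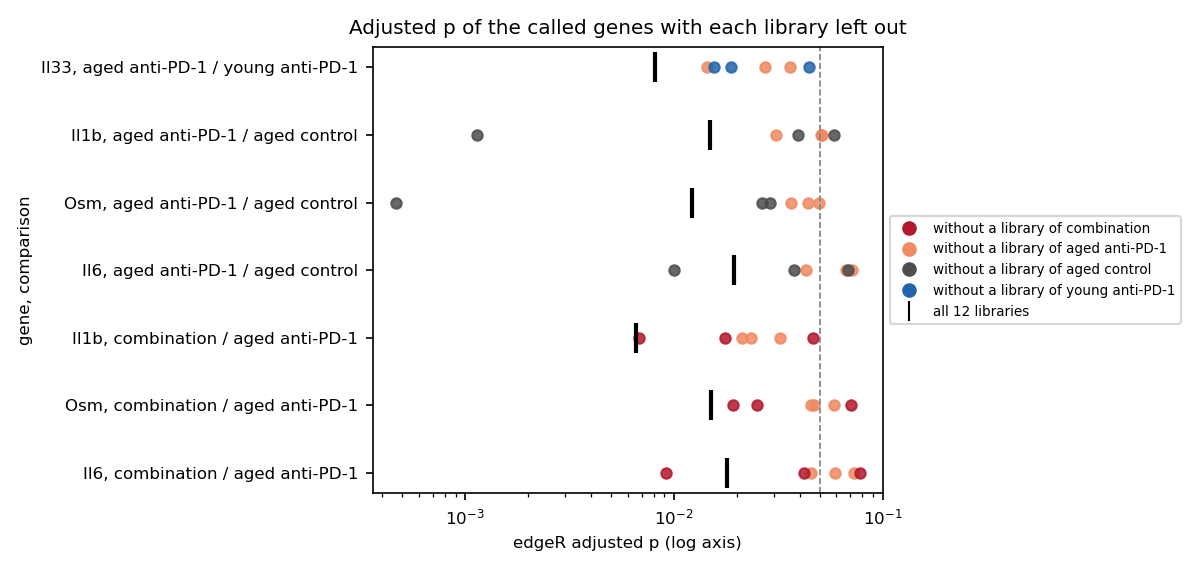
Adjusted p (log x axis) of the 7 member calls (y axis) with all 12 libraries (black bar) and with each library of the compared groups left out in turn (points, coloured by the group of the left-out library); the dashed line is 0.05. Il33 with age, Osm with anti-PD-1 in aged mice and Il1b with the combination stayed under the line, with highest values of 0.0442, 0.0493 and 0.0461; the other 4 calls crossed it.

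Neutrophil markers moved in the same comparisons as Il1b, Osm and Il6. Neutrophils are a known source of IL-1β and oncostatin M. Of 13 neutrophil genes, 7 rose and 0 fell in the combination against aged anti-PD-1 (median 0.98), and 0 rose and 7 fell in aged anti-PD-1 against aged control (median -1.08). Of all genes, 9.02% and 10.9% were called in these 2 comparisons. With age 2 rose and 0 fell, beside 15.3% of all genes called. Between the combination and aged control 0 were called, where the edgeR fit called 0% of all genes. S100a9, a subunit of calprotectin, averaged 824 ± 129 CPM in the combination, 326 ± 58.3 CPM in aged anti-PD-1, 863 ± 142 CPM in aged control and 216 ± 65.7 CPM in young anti-PD-1 lungs. Summed over the list, the levels were 2059 to 2882 CPM in the combination, 979 to 1300.2 CPM in the aged anti-PD-1, 2259.9 to 3949.8 CPM in the aged control and 743 to 1097 CPM in the young anti-PD-1 libraries, with no gene at 0 in any library. Of 12 monocyte and interstitial macrophage markers, another possible source, 0 were called higher and 2 lower in the combination against aged anti-PD-1 (median -0.01). In aged anti-PD-1 against aged control 3 were called higher and 0 lower (median -0.01). Their summed levels overlapped among the aged groups, at 956 to 1250.4 CPM in the combination, 966 to 1334 CPM in aged anti-PD-1 and 892 to 1328 CPM in aged control libraries. Blood endothelial markers, whose genes Pecam1 and Vwf encode an adhesion molecule and von Willebrand factor, ran against Il1b, with 7 of 11 higher in aged anti-PD-1 against aged control and 6 lower in the combination against aged anti-PD-1. Of 6 erythroid genes, 4 rose in the combination against aged anti-PD-1, where the haemoglobin share was also higher. Mesothelial markers, given above, were lower in aged anti-PD-1 against aged control too, but 0 of 7 were called in the combination against aged anti-PD-1. Of 10 fibroblast markers, 2 rose and 0 fell in the combination against aged anti-PD-1 (median -0.08). In aged anti-PD-1 against aged control 0 rose and 2 fell (median -0.01). Their summed levels were 3641 to 4422 CPM in the combination, 3462 to 3899 CPM in aged anti-PD-1 and 4054 to 5091 CPM in aged control libraries. Genes of the circadian clock moved in several comparisons. Of 15, 0 rose and 4 fell in the combination against aged anti-PD-1, and 1 rose and 2 fell in aged anti-PD-1 against aged control. In aged against young anti-PD-1 lungs 4 rose and 3 fell, among them the activator genes Npas2 (-1.71) and Arntl (-1.33). An unadjusted p under 0.05 was found for 12, 8 and 12 of the 15 in these 3 comparisons. Summed over the list, the levels were 814 to 926 CPM in the combination, 914 to 1163 CPM in aged anti-PD-1, 929 to 981 CPM in aged control and 783 to 920.4 CPM in young anti-PD-1 libraries. The aged anti-PD-1 range overlapped that of each other group, while the aged control libraries lay above every combination and young library. Opposite changes of single clock genes offset each other in this sum, so overlapping sums do not show equal clock states. The clock gene Per3 averaged 9.38 ± 1.63 CPM in the combination, 34.1 ± 18.4 CPM in aged anti-PD-1, 10.4 ± 2.66 CPM in aged control and 12.3 ± 2.14 CPM in young anti-PD-1 lungs. The labels give no hour of collection. Whether neutrophil, monocyte, macrophage, endothelial, mesothelial, fibroblast, erythroid or clock transcripts had a part in the changes of Il1b, Osm and Il6 was not tested. The part of the clock genes in the age differences of Il33 and the inflammasome genes was not tested either.

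**Figure D4:**
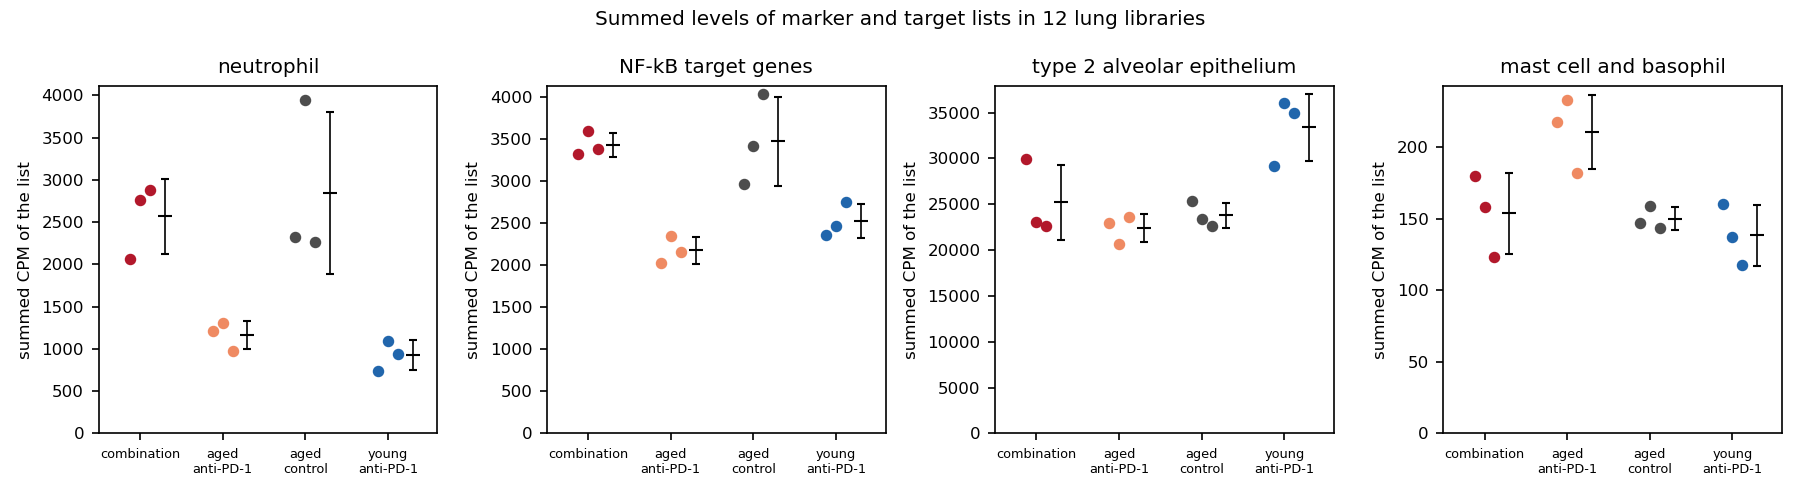
Summed CPM (linear axis from 0) of the neutrophil markers, the NF-κB target genes, the type 2 alveolar markers and the mast cell and basophil markers; coloured points are libraries and black bars the group mean ± SD (n = 3). Neutrophil and NF-κB target sums were lowest among the aged groups in aged anti-PD-1 lungs, at 979 to 1300.2 and 2027 to 2343 CPM, and type 2 alveolar sums were highest in young lungs for 2 of 3 libraries.

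Genes known to be induced by NF-κB downstream of IL-1 and TNF followed the same order among the aged groups. Of 25 such genes, 7 rose and 0 fell in the combination against aged anti-PD-1 (median 0.53), and 0 rose and 12 fell in aged anti-PD-1 against aged control (median -0.60). Of all genes, 9.02% and 10.9% were called in these 2 comparisons. Whether the members or the neutrophil change had a part in these differences was not tested. The neutrophil chemokine gene Cxcl2 had 601, 786 and 619 CPM in combination lungs, 107, 143 and 127 CPM in aged anti-PD-1 lungs, 272, 651 and 588 CPM in aged control lungs, and 208, 223 and 243 CPM in young anti-PD-1 lungs. It was 2.41 ± 0.26 higher in the combination than in aged anti-PD-1 lungs (edgeR adjusted p 0.00108) and fell by 2.00 ± 0.26 in aged anti-PD-1 lungs relative to aged control (edgeR adjusted p 0.00319). Cxcl1, a second neutrophil chemokine, gave 2.03 ± 0.24 and -2.27 ± 0.24 in these 2 comparisons, and the monocyte chemokine Ccl2 gave 1.77 ± 0.21 and -1.79 ± 0.21. These 6 differences were called and stayed so without any 1 library. Summed over the list, the level was 3319 to 3594 CPM in the combination, 2027 to 2343 CPM in aged anti-PD-1, 2971 to 4033 CPM in aged control and 2355 to 2757 CPM in young anti-PD-1 libraries. With age, 1 gene rose and 3 fell, beside 15.3% of all genes called. The riser was Ccl20, a chemokine for CCR6-bearing cells (edgeR adjusted p 0.00288), with 26, 101 and 84 reads in aged anti-PD-1 and 1, 3 and 0 reads in young libraries. The adhesion molecule gene Icam1 (-0.83 ± 0.19), Ccl2 (-0.82 ± 0.20) and Cxcl2 (-0.84 ± 0.25) fell, calls that were each lost without some library (highest edgeR adjusted p 0.0618, 0.0793 and 0.142).

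Among other IL-1 family genes, 8 of the 14 found in the table were tested. Il1r2, which encodes a decoy receptor that binds IL-1β without signalling and is abundant on neutrophils, had 216, 228 and 188 CPM in combination lungs, 53.3, 92.9 and 48.6 CPM in aged anti-PD-1 lungs, 140, 243 and 163 CPM in aged control lungs, and 72.1, 84.5 and 76.4 CPM in young anti-PD-1 lungs. It was 1.70 ± 0.24 higher in the combination than in aged anti-PD-1 lungs (edgeR adjusted p 0.00386) and fell by 1.49 ± 0.24 in aged anti-PD-1 lungs relative to aged control (edgeR adjusted p 0.00581). It was the single gene of the list called in either comparison, beside 9.02% and 10.9% of all genes. With age the IL-18 receptor gene Il18r1 fell by 0.95 ± 0.19 (edgeR adjusted p 0.00615), and no other gene of the list was called, beside 15.3% of all genes. Of the IL-36 branch and its relatives, the table lists Il1f6, Il1f5, Il1f10 and the orphan receptor gene Il1rapl2 at 0 in all 12 libraries.

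Some inflammasome genes, whose products act in or around the cleavage of pro-IL-1β and pro-IL-18, were called in 3 of the 4 comparisons. In aged against young anti-PD-1 lungs 8 of 14 rose and 0 fell (median 0.63), beside 15.3% of all genes called. In the combination against aged anti-PD-1, 2 rose and 1 fell, beside 9.02% of all genes, and in aged anti-PD-1 against aged control 1 rose and 1 fell, beside 10.9%. The difference between the age and treatment effects was not tested. Blood cell markers were also called higher with age, with 5 of 12 monocyte and interstitial macrophage, 4 of 10 dendritic cell, 5 of 10 T cell, 6 of 7 B cell and 8 of 8 platelet genes, and their part in the inflammasome difference was not tested. Casp1, the protease itself, averaged 31.9 ± 3.71 CPM in the combination, 34.3 ± 7.47 CPM in aged anti-PD-1, 27.7 ± 5.81 CPM in aged control and 17.6 ± 0.960 CPM in young anti-PD-1 lungs, and its age difference was 0.97 ± 0.17 (edgeR adjusted p 0.00345). Txnip, a redox protein that binds NLRP3 (0.64 ± 0.11, edgeR adjusted p 0.00275), and P2rx7, the ATP-gated channel that triggers NLRP3 (0.71 ± 0.14, edgeR adjusted p 0.00472), also rose with age. P2rx7 moved against Il1b among the aged groups: it fell by 0.65 ± 0.14 in the combination against aged anti-PD-1 (edgeR adjusted p 0.0144, lost without the second combination library at 0.0708) and rose by 0.72 ± 0.14 in aged anti-PD-1 against aged control (edgeR adjusted p 0.00820). Mefv, which encodes pyrin, rose by 1.22 ± 0.31 in the combination against aged anti-PD-1 and fell by 1.32 ± 0.31 in aged anti-PD-1 against aged control (edgeR adjusted p 0.0304 and 0.0219), each lost without any 1 of 4 libraries. The sensor gene Nlrp3 rose by 0.86 ± 0.22 in the combination against aged anti-PD-1 (edgeR adjusted p 0.0317, up to 0.118 without 1 library). In the MyD88 and IRAK list of 14, 1 gene was called in each of these 2 comparisons, beside 9.02% and 10.9% of all genes. This gene, Irak2, a kinase of the receptor complex, gave 0.54 ± 0.14 in the combination against aged anti-PD-1 and -0.55 ± 0.14 in aged anti-PD-1 against aged control (edgeR adjusted p 0.0297 and 0.0250). The first of these was lost without any 1 of the 6 libraries, the second without any 1 of 5. With age, 2 of the 14 rose and 0 fell, beside 15.3% of all genes called. Irak3, a brake on that complex, rose by 0.98 ± 0.17 (edgeR adjusted p 0.00299) and Ikbkb, the kinase that releases NF-κB, by 0.50 ± 0.11 (edgeR adjusted p 0.00867).

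Of 14 tested IL-6 family genes, 1 rose and 2 fell in the combination against aged anti-PD-1, beside 9.02% of all genes called there. Lif, a further gp130 ligand, was 0.98 ± 0.23 higher (edgeR adjusted p 0.0215), while the receptor genes Lifr (-0.65 ± 0.17, edgeR adjusted p 0.0293) and Osmr, the oncostatin M receptor (-0.42 ± 0.11, edgeR adjusted p 0.0342), were lower. In aged anti-PD-1 against aged control only Lif was called, beside 10.9% of all genes, and it fell by 0.81 ± 0.23 (edgeR adjusted p 0.0373). Each of these 4 calls was lost without some library. With age only Il27ra, the IL-27 receptor gene, was called in this list (0.78 ± 0.22, edgeR adjusted p 0.0301, up to 0.143 without 1 library), beside 15.3% of all genes. Of the 14, 8 had an unadjusted p under 0.05. Of 16 tested STAT3 and acute phase genes, 2 rose in the combination against aged anti-PD-1 and 3 fell in aged anti-PD-1 against aged control, beside 9.02% and 10.9% of all genes called. Bcl3, an NF-κB cofactor, gave 0.85 ± 0.12 and -0.87 ± 0.12 in these 2 comparisons (edgeR adjusted p 0.00338 and 0.00370), and the kinase gene Pim1 gave 1.30 ± 0.21 and -1.01 ± 0.21 (edgeR adjusted p 0.00541 and 0.0122). These 4 calls held without any 1 library. The transcription factor gene Cebpd fell by 0.48 ± 0.14 in aged anti-PD-1 against aged control (edgeR adjusted p 0.0416), which was lost without any 1 of the 6 libraries. With age, 1 of the 16 rose and 1 fell, beside 15.3% of all genes called. The serum amyloid gene Saa3 rose by 2.21 ± 0.59 and the haptoglobin gene Hp fell by 0.48 ± 0.14 (edgeR adjusted p 0.0322 and 0.0401), each lost without any 1 of 5 libraries.

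TNF receptors and their adaptors had 0 of 17 genes called in the combination against aged anti-PD-1, beside 9.02% of all genes. The smallest p there belonged to the ubiquitin ligase gene Birc3 (0.38 ± 0.14, edgeR adjusted p 0.0959). In aged anti-PD-1 against aged control 2 of 17 rose and 0 fell, beside 10.9% of all genes called. They were the caspase-8 inhibitor gene Cflar (0.42 ± 0.11, edgeR adjusted p 0.0262) and Casp8 itself (0.46 ± 0.13, edgeR adjusted p 0.0388), both lost without some library. With age 3 rose and 1 fell, beside 15.3% of all genes called. Birc2 (0.40 ± 0.09), Cflar (0.40 ± 0.11) and the TNF receptor gene Tnfrsf1b (0.68 ± 0.20) rose and the adaptor gene Traf1 fell by 0.47 ± 0.10 (edgeR adjusted p 0.0109, 0.0234, 0.0377 and 0.00960). Traf1 alone of these kept its call without any 1 library. Of 15 tested genes of type 2 lymphoid cells and type 2 cytokines, which act downstream of IL-33, 0 were called in the combination against aged anti-PD-1, beside 9.02% of all genes. The arginase gene Arg1 had the smallest p there (1.22 ± 0.42, edgeR adjusted p 0.0780). The transcription factor gene Gata3 rose by 0.73 ± 0.19 in aged anti-PD-1 against aged control (edgeR adjusted p 0.0268). It was the only 1 of the 15 called there, beside 10.9% of all genes. With age 3 of the 15 rose and 1 fell, beside 15.3% of all genes called. With age the costimulator gene Icos (1.15 ± 0.27), the IL-7 receptor gene Il7r (1.29 ± 0.32) and Gata3 (0.60 ± 0.18) rose, and Retnla, a macrophage product induced by IL-4 and IL-13, fell by 1.6 ± 0.47 (edgeR adjusted p 0.0132, 0.0182, 0.0433 and 0.0453). All 5 of these calls were lost without some library. The cytokine gene Il9 was at 0 in all libraries.

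**Figure D5:**
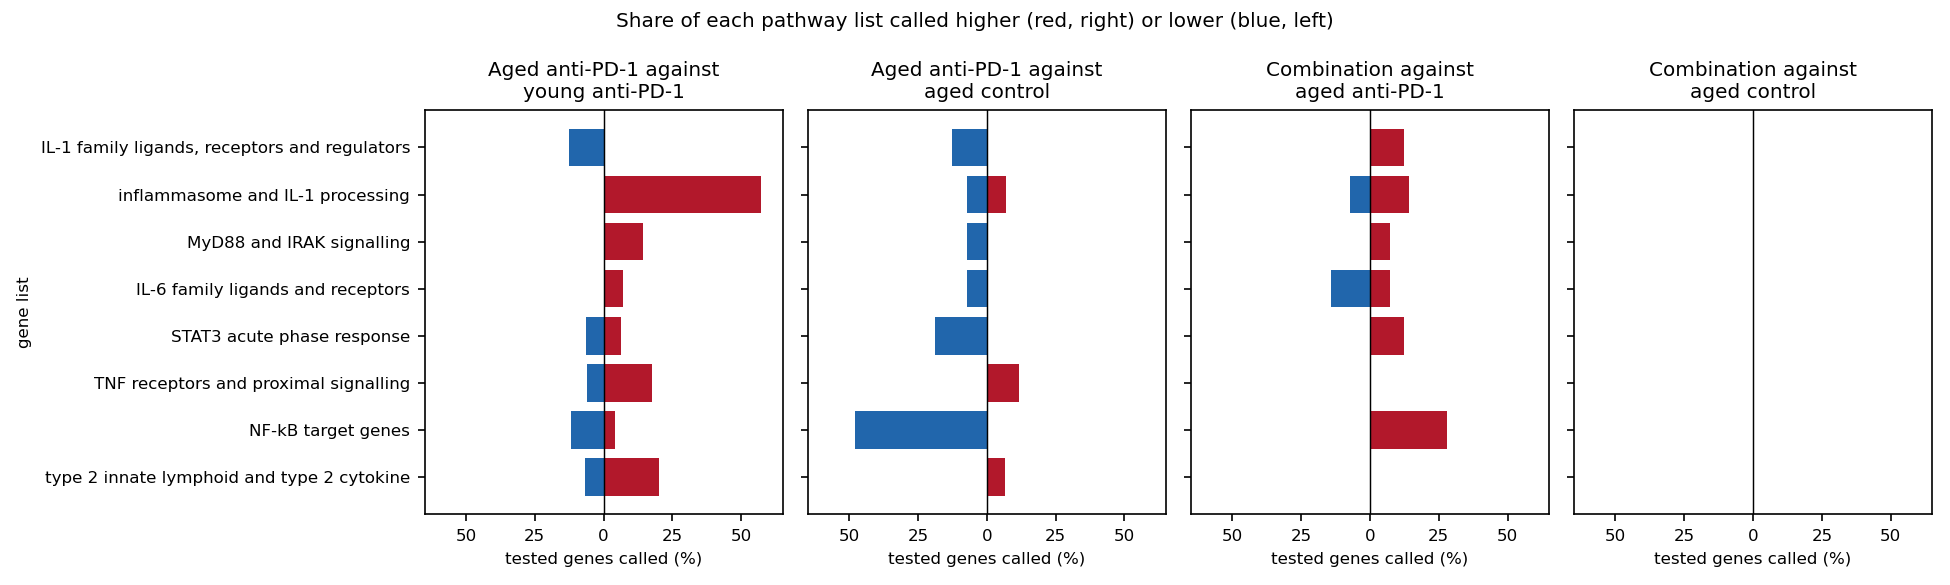
Share of the tested genes (x axis, %) of 8 pathway lists (y axis) that were called higher (red, right) or lower (blue, left) in each of the 4 comparisons. The NF-κB targets were called lower in 12 of 25 cases for aged anti-PD-1 against aged control and higher in 7 of 25 for the combination against aged anti-PD-1; the inflammasome list had 8 of 14 higher with age, and no gene was called for the combination against aged control.

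The genes whose profile lay nearest to each called member were found over the 12 libraries as the smallest root mean square difference of centred log2 CPM, among 15079 protein-coding genes. Nearest to Il1b were Clec4d, a C-type lectin of myeloid cells (0.209), the transcription factor gene Mxd1 (0.253) and the retinol dehydrogenase gene Rdh12 (0.263), beside a median of 0.828 over all genes. Nearest to Osm were the chemokine gene Ccl3 (0.186), Hdc, which makes histamine (0.222), and the metalloprotease gene Adam8 (0.230), beside a median of 0.841. Ccl3 was also nearest to Il6 (0.343), followed by the niacin receptor gene Hcar2 (0.350) and the metallothionein gene Mt2 (0.361), beside a median of 0.909. Nearest to Il33 were Rab27b, a GTPase of vesicle release (0.133), the fatty acid desaturase gene Fads2 (0.133) and the collagen gene Col6a1 (0.161), beside a median of 0.424. Of these, Hdc is itself on the neutrophil list.

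The promoters of the called members with an entry in the RefSeq tables (GRCm38.p6, the build named mm10) are shown because Il1b and Il6 moved together while Il33 did not. Each line gives the 250 bases before the RefSeq start site on the gene's own strand, with motif matches in capitals. The lines cover chr2:129371140-129371389 (minus strand) for Il1b, chr5:30012864-30013113 (plus strand) for Il6 and chr19:29924863-29925112 (plus strand) for Il33.
Il1b: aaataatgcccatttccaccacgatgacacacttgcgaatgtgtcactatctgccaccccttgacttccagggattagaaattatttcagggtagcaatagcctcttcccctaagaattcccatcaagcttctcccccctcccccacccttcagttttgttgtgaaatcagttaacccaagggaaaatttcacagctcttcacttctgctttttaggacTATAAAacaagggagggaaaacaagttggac
Il6: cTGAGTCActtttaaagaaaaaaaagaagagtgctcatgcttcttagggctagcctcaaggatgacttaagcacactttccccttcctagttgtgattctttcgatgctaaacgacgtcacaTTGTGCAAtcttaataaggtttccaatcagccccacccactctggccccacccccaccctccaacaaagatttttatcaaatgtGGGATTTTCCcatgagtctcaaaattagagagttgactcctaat
Il33: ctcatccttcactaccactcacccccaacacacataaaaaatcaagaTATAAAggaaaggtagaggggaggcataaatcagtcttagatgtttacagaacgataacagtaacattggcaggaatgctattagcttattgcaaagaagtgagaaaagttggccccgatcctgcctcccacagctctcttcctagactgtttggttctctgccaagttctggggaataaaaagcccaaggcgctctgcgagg
The motifs searched on both strands were the NF-κB motif by name, AP-1 (TGANTCA), C/EBP (TTGCNNAA), the E-box (CACGTG) and the TATA box (TATAAA). Il6 held an NF-κB match from -44 to -35 (GGGATTTTCC), a C/EBP match from -128 to -121 and an AP-1 match from -249 to -243, counted from the start site. Il1b held the letters TATAAA from -31 to -26. Il33 held them from -203 to -198, farther from the start. Neither gene held a match to the other motifs. Of the 9 members with an entry, 1 had an NF-κB match, 3 an AP-1 match, 3 a C/EBP match, 0 an E-box match and 5 a TATAAA match. The TATAAA matches of Il33 and Il18 (-175 to -170, minus strand) lay farther from the start than those of Il1a, Il1b and Tnf. Among 32851 promoters of the same length these motifs were found in 7.25%, 6.75%, 9.56%, 6.02% and 12.4%. The TATA boxes of Il1a (-32 to -27), Il1b and Tnf (-29 to -24) lay at nearly the same distance from the start. A match describes letters in this window only.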

How the data were processed

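The deposited table holds raw read counts per gene for 12 whole-lung libraries, 1 column each, with no normalization according to the file header. The authors used bcl2fastq 1.8.4, Trimmomatic, HISAT2 and featureCounts 1.6.3 with mm10, per the submitters' processing notes; options, annotation release and strand setting are not given in the sources used here. Symbols and coordinates came from the deposited annotation columns. Genes were filtered with filterByExpr by group (minimum count 10, minimum total 15), scaled by TMM and fitted in 1 edgeR 4.0.16 quasi-likelihood model with 4 group means (limma 3.58.1, R 4.3.3; 8 residual degrees of freedom), with two-sided tests adjusted over 18556 genes. Each SE was obtained from the fold change and its F statistic. An exact permutation test of 3 against 3 cannot go below p = 0.1, so none was used. TPM used the joined length of all exons that GENCODE M21 gives for a gene, which can exceed the length of a single transcript. The fit was tested on simulated counts.

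The members and lists were chosen with earlier results of these data known. The 8 pathway and 16 cell type lists were named by a rule: every member, up to 3 higher and 3 lower called genes of a pathway list per comparison (else the gene with the smallest p), up to 2 per cell type list, and 3 nearest genes per called member. IL-36 genes were matched by RefSeq synonyms; Il37 and Ahsp were not matched. Libraries of a group differed beyond counting noise (chi-square per degree of freedom 9.61 to 48.1). Alternatives were each library left out, a replicate block, fits of 2 groups, limma-voom, DESeq2 1.42.0, scaling by RLE, by library totals or by TMM computed without mitochondrial, haemoglobin and immunoglobulin genes, and, for the filter, none or a mean CPM of at least 1. Figures were drawn with matplotlib 3.10.9.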

Additional observations from a re-analysis of the deposited data

How the results depend on the processing

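Of 600 single-gene alternatives for the members, 541 kept direction and side of the threshold, 8 passed it anew, 14 lost it and 37 changed sign, all of the last for differences that were not called. The number of members called with age became 2 with DESeq2, with the replicate block and with the fit of 2 groups (1 to 1 without a library). It was 1 to 5 without a library for aged anti-PD-1 against aged control. For the combination against aged anti-PD-1 it became 1 without the filter, 4 in the fit of 2 groups (with Il1rl1) and 1 to 3 without a library. Calls over all genes with age were 1160 to 2237 without a library, in place of 2830. For aged anti-PD-1 against aged control, 2025 became 881 in the fit of 2 groups and 607 to 1995 without a library. In the combination against aged anti-PD-1, 1674 became 2595 with DESeq2, 3038 with library totals and 260 to 1439 without a library. In the combination against aged control, 0 became 76 with DESeq2, 11 without the filter and 0 to 13 without a library. The counts over all genes moved by over 1.5 times without aged anti-PD-1 library 3 or young library 2 or 3 (age), any aged anti-PD-1 library or control library 2 (anti-PD-1), any aged anti-PD-1 library or combination library 2 (added anti-IL-21R), and combination library 1 (combination against control). The cause of these changes was not tested.

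Signs turned for Il1r1, Il18, Il6, Osm and Tnf in other settings, and also for Il1a and Il1rl1 without a library. With library totals Il1r1 gave 0.0509 for aged anti-PD-1 against aged control. For the combination against aged anti-PD-1, Il18 gave -0.0308 with library totals, and Il1r1 gave -0.19 with library totals, -0.00266 with voom, -0.00121 with the reduced TMM, -0.00842 without the filter and -0.00190 with the replicate block. In the combination against aged control, Il6 gave -0.0271 with library totals, Osm 0.0795 with voom and 0.0235 with the replicate block, and Tnf 0.0900 and 0.0305 in those fits. Without a library, log2 values ran with age from -0.45 to 0.0610 for Il1a, -0.0412 to 0.38 for Il1rl1 and -0.14 to 0.46 for Tnf. They ran from -0.14 to 0.31 for Il18 and -0.17 to 0.0298 for Il1r1 in aged anti-PD-1 against aged control, and from -0.0391 to 0.29 and -0.0903 to 0.11 in the combination against aged anti-PD-1. In the combination against aged control they ran from -0.54 to 0.0766 for Il1a, -0.13 to 0.0644 for Il1r1, -0.0738 to 1.05 for Il1rl1, -0.22 to 0.49 for Il6, -0.37 to 0.43 for Osm and -0.42 to 0.25 for Tnf.

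Libraries with the same replicate number did not deviate together (median correlation of residuals -0.0120 over 18 pairs), so numbers were not read as pairs. The replicate block changed no member call but that of Il1b with age. Of 1695 alternatives for the other named genes, 1416 kept the call and 279 lost it. Il1rl1, at 28 to 113 reads per library, is where depth limits the members most.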
